A study of Danio rerio with 6 samples.

Results

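The genes described here are those of the interferon response and of antigen presentation. They were taken by name: 22 genes carried a listed symbol, and 66 began with irf, irg, gbp, mhc1 or mhc2 in the pattern of those families, which gave 88 of the 32520 genes in the count table. The rule uses names and no expression value, but the members were chosen with earlier results of these data known. The listed symbol helz2 had no match, and the antiviral Mx genes were not included. Both groups were embryos of the sp7-eGFP zebrafish line, in which an sp7 reporter marks bone-forming cells with green fluorescent protein (GFP). In 1 arm of 400 embryos, 200 nM bisphenol A (BPA), a plastic monomer with estrogenic activity, was present from 24 hours to 4 days post fertilization. The other arm of 400 embryos was the control. The BPA stocks were made in dimethyl sulfoxide, and the content of the control medium is not stated in the labels. GFP-positive cells were sorted from dissociated whole embryos at day 4, and RNA of 3 exposed and 3 control libraries was sequenced. Nothing in the labels tells whether libraries of the same arm came from different pools of embryos, so the p-values measure the spread between these libraries, which may be technical.

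Interferons are cytokines that cells release when they sense virus or other danger. They bind receptors whose JAK kinases phosphorylate STAT proteins, and STATs together with interferon regulatory factors (IRFs) switch on antiviral effectors, GTPases that act on intracellular pathogens, and the machinery that shows peptides to T cells. Class I molecules, made of a heavy chain and beta-2-microglobulin, show peptides from inside the cell and are made by most cell types, whereas class II molecules show peptides from outside it and are made mainly by macrophages, dendritic cells and B cells. Zebrafish haplotypes differ in which class I and peptide-loading genes they carry, and the reads of these fish were counted against 1 reference genome.

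The libraries held between 30748435 and 43403568 counts. SP7 itself averaged 8.49 ± 0.355 CPM in exposed and 6.87 ± 1.55 CPM in control libraries (SD, n = 3 each) and did not pass the test (adjusted p = 0.175). The osteoblast marker list, which is mostly collagen by level, summed to between 11767 and 11897 CPM (counts scaled to a common library size) in exposed and between 9842 and 10084 CPM in control libraries. Gene by gene, of 15 tested 3 were higher, 5 were lower and 7 did not pass. Of all genes tested, 20.1% were higher and 18.7% lower. The median log2 fold change of the osteoblast list was -0.17. Without 1 gene that entered the test through the exposed libraries alone, the median was -0.20. The late osteoblast gene bglap had 0 counts in every library. The sorted material also held transcripts that mark other cell types. The sums of the epidermal, pan-leukocyte and liver lists differed between the groups, and which cells these transcripts came from was not tested. Epidermal markers summed to between 26834 and 27537 CPM in exposed and between 15397 and 15922 CPM in control libraries, pan-leukocyte markers to between 565 and 588 CPM in exposed and between 339 and 374 CPM in control libraries, and liver markers to between 2881 and 2924 CPM in exposed and between 9682 and 10053 CPM in control libraries (exact permutation p = 0.1 for each, the smallest that 3 against 3 libraries allow). In bulk RNA such as this, fewer cells of a type and less RNA per cell cannot be told apart.

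Of the 88 genes, 67 had enough counts to be tested, 32 were higher and 5 were lower in the exposed libraries, and 30 did not pass. The test was edgeR's quasi-likelihood test, with Benjamini-Hochberg adjustment over all 21194 genes tested and a threshold of 0.05. The 37 calls were 55.2% of the members tested, where 38.8% of all genes tested were called, 20.1% higher and 18.7% lower. Among the members 19 were called at least 2-fold higher, against 5.59% of all genes tested. The exposed values lay entirely above the control values for 34 members and entirely below them for 7, while groups without overlap made up 48.4% of all genes tested. The median log2 fold change of the tested members was 0.60, and that of all genes tested was -0.0029. Because 6 of the members, cd74a, mhc2dab, mhc2dhb, irge1, mhc1lda and mhc1lfa, passed the filter on low counts through the exposed libraries alone, they were bound to lie higher there; without them 28 were higher and 5 lower of 61, with a median of 0.49. Without those 6, 15 members were called at least 2-fold higher, and for 28 the exposed values lay entirely above the control values. Among the higher calls left, irge4, mhc1lba, cd74b, mhc2dca and mhc2dbb also needed the exposed libraries to enter the test. The comparison with all genes thus still favours higher calls. The members were also chosen with earlier results known, so this comparison is no independent test. Of the 32 higher calls, 19 remained in all 6 fits that left out 1 library, as did 4 of the 5 lower calls. Among these 19 were cd74a, mhc2dab, mhc2dhb and irge1, which were bound to lie higher.

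**Figure D1:**
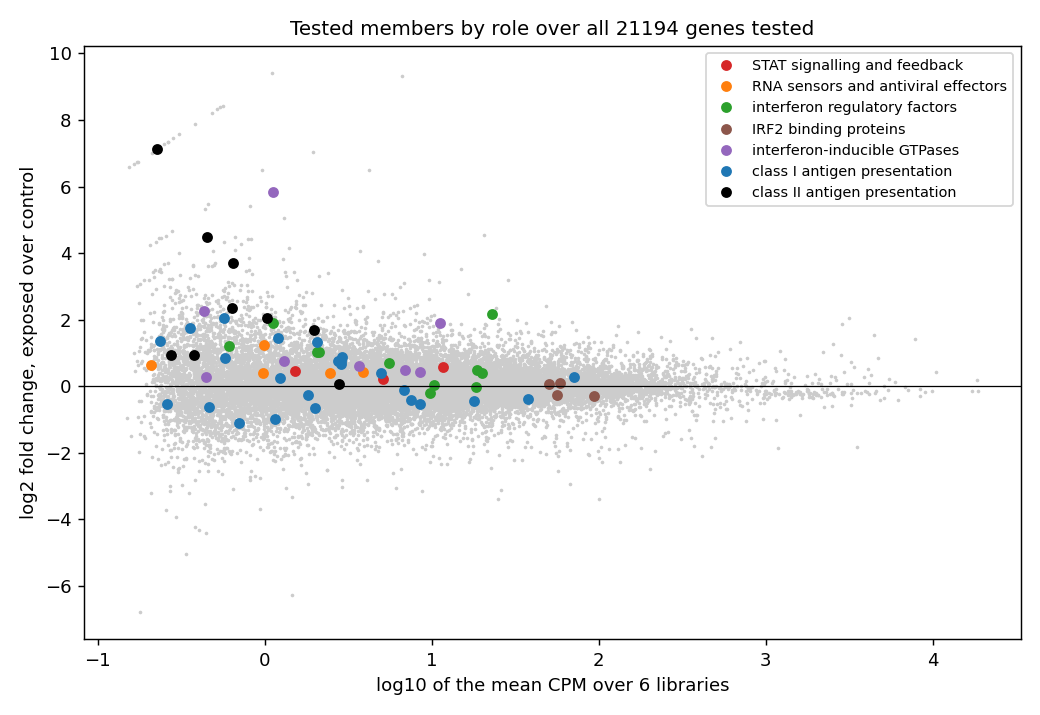
Log2 fold change, exposed over control, against the log10 of the mean CPM over 6 libraries. Grey points are the 21194 genes tested and coloured points 64 tested members by role. The class II genes called higher and irge1 sit at the upper left, at low mean CPM and high fold change. The class II genes mhc2d4b, ciita and mhc2daa, which did not pass, lie below them. The IRF gene irf1b sits among the members of higher level, and the point of mhc2dhb (control counts all 0) depends on the prior count of the fit.

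Of the signalling genes, SOCS1, which shuts off JAK kinases after a cytokine signal, rose. SOCS1 had 13.1, 13.9 and 14.9 CPM in exposed libraries 1, 2 and 3, against 8.38, 9.59 and 10.2 CPM in control libraries. All 3 exposed values lay above all 3 control values (log2 fold change 0.58 ± 0.10 SE, adjusted p = 7.29e-04). The gene stat2, whose product is a transcription factor downstream of type I interferon receptors, had 5.20, 6.09 and 5.10 CPM in exposed and 5.10, 3.73 and 5.46 CPM in control libraries and did not pass the test (log2 fold change 0.20, adjusted p = 0.469). The inhibitor usp18, which removes ISG15 from proteins and blocks the type I receptor, had 1.62, 2.09 and 1.59 CPM in exposed and 1.61, 0.954 and 1.30 CPM in control libraries, a log2 fold change of 0.46 (adjusted p = 0.351). In both of these genes the values of the groups overlapped.

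Of the 5 sensors of viral RNA and classic antiviral effectors tested 1 was called, a share of 20.0% beside the 38.8% called over all genes. All 5 had a positive log2 fold change, with a median of 0.42, and 3 of them averaged under 1 CPM. Of all 21194 genes tested 10539 had a positive log2 fold change. The call was DHX58, which encodes LGP2, a sensor of double-stranded RNA. DHX58 had 1.33, 1.24 and 1.59 CPM in exposed libraries, against 0.806, 0.409 and 0.558 CPM in control libraries, with no overlap (log2 fold change 1.23 ± 0.28 SE, adjusted p = 0.0467). This call ended without exposed library 1, 2 or 3 or control library 2 or 3 (adjusted p between 0.0622 and 0.179), and it remained without control library 1. IFIH1, the RNA sensor MDA5, had 2.99, 3.33 and 2.11 CPM in exposed libraries and 3.22, 1.91 and 1.30 CPM in control libraries, and the groups overlapped (log2 fold change 0.38, adjusted p = 0.370). The ubiquitin ligase gene trim25, which acts on the sensor RIG-I in mammals, had 4.55, 4.52 and 4.21 CPM in exposed libraries and 3.06, 3.36 and 3.47 CPM in control libraries. The exposed values of trim25 were all above the control values, yet the gene missed the threshold (log2 fold change 0.42 ± 0.064 SE, adjusted p = 0.135). The ubiquitin-like modifier gene isg15, strongly induced by type I interferon, had 0.779, 1.24 and 1.31 CPM in exposed libraries and 1.02, 1.00 and 0.496 CPM in control libraries. Those ranges overlapped, with a log2 fold change of 0.40 (adjusted p = 0.565). CMPK2, a nucleotide kinase gene that lies beside the viperin gene RSAD2 in the RefSeq gene order of the assembly GRCz12tu, held between 0 and 14 counts in a library (adjusted p = 0.668). RSAD2 was too low to test, with 2, 6 and 10 counts in exposed libraries and 22, 8 and 0 counts in control libraries.

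**Figure D2:**
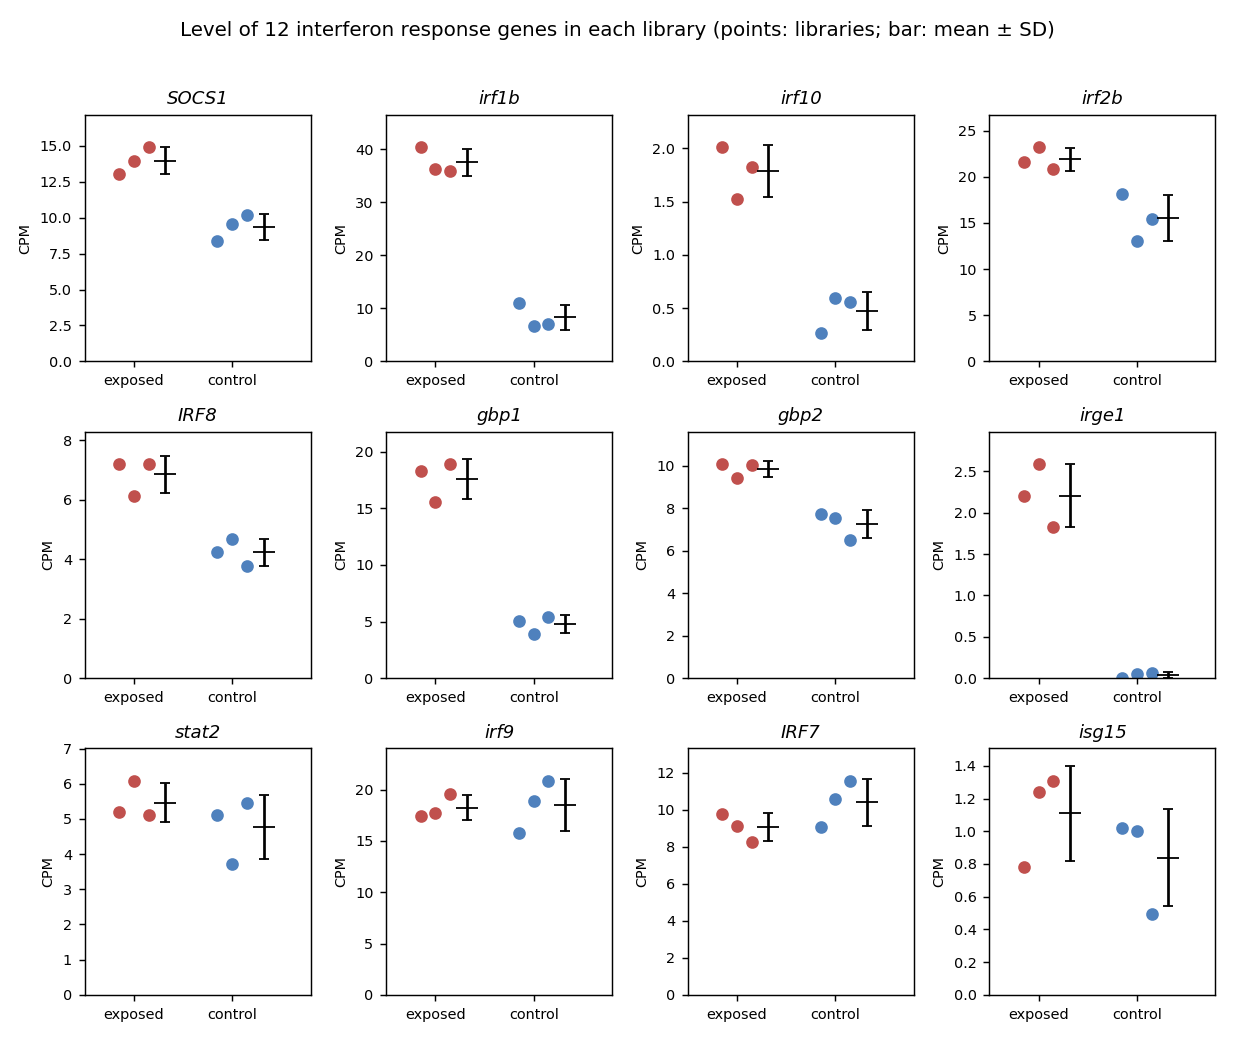
CPM of 12 members in each library, on linear axes from 0, with exposed libraries to the left of control libraries. Points are libraries 1 to 3 from left to right and the bar is the mean ± SD (n = 3). The upper 8 panels show genes whose groups do not overlap, and in the lower 4, stat2, irf9, IRF7 and isg15, they do.

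Of the 12 interferon regulatory factors tested, 8 were higher, none was lower and 4 did not pass, where 20.1% of all genes tested were higher and 18.7% lower. Their median log2 fold change was 0.85. Their summed level was 181, 166 and 171 CPM in exposed libraries, against 101, 101 and 105 CPM in control libraries. The gene irf1b, a copy of IRF1, which activates interferon-response and antigen-presentation genes, had 40.4, 36.2 and 36.0 CPM in exposed libraries and 10.96, 6.73 and 7.13 CPM in control libraries. Its lowest exposed value was more than 3 times its highest control value (log2 fold change 2.18 ± 0.23 SE, adjusted p = 1.06e-14). The other copy, irf1a, had 3.31, 1.90 and 3.30 CPM in exposed libraries and 1.99, 0.954 and 1.27 CPM in control libraries (log2 fold change 1.01 ± 0.39 SE, adjusted p = 0.0171). Exposed library 2 lay below control library 1, so the groups of irf1a overlapped, and the call ended without exposed library 1 or 3 or control library 2 (adjusted p between 0.0786 and 0.106). The gene irf10, a family member that human and mouse lack, had 2.01, 1.52 and 1.83 CPM in exposed libraries and 0.269, 0.591 and 0.558 CPM in control libraries, without overlap (log2 fold change 1.91 ± 0.34 SE, adjusted p = 0.00155).

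IRF8, which zebrafish need to form macrophages, had 7.21, 6.14 and 7.21 CPM in exposed libraries and 4.24, 4.68 and 3.78 CPM in control libraries. Its groups did not overlap (log2 fold change 0.69 ± 0.12 SE, adjusted p = 0.00433). Macrophage markers moved both ways beside it: 10 of the 20 tested were higher and 2 were lower (9 of 19 higher without grna.2, which entered the test through the exposed libraries alone), and the summed list, dominated by apoeb, lay between 1117 and 1132 CPM in exposed and between 1238 and 1298 CPM in control libraries. Over all genes tested 20.1% were higher and 18.7% lower. The macrophage pore-forming protein gene MPEG1 (ENSDARG00000043093) averaged 40.7 ± 2.37 CPM in exposed and 7.96 ± 0.792 CPM in control libraries (SD, n = 3 each; log2 fold change 2.35, adjusted p = 6.36e-18). That was the largest change on the list without grna.2, whose median was 0.49. Another gene with the symbol MPEG1 had 0 counts in every library, and the complement genes c1qa, c1qb and c1qc stayed below 0.5 CPM in every library. The part of these cells in the IRF8 difference was not tested.

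Among the remaining factors, irf2b, a copy of the IRF1 antagonist IRF2, rose (log2 fold change 0.50 ± 0.14 SE, adjusted p = 7.10e-04), and its other copy irf2a averaged 10.4 ± 1.01 CPM in exposed and 10.2 ± 0.724 CPM in control libraries (adjusted p = 0.842). IRF5, which acts downstream of Toll-like receptors, rose by a log2 fold change of 0.39 (SE 0.084, adjusted p = 0.00270). IRF3 and IRF7 switch on the interferon genes themselves. The gene irf3 had 3.64, 2.69 and 1.97 CPM in exposed libraries and 0.752, 1.27 and 2.05 CPM in control libraries, a log2 fold change of 1.03 ± 0.47 SE (adjusted p = 0.0219). Exposed library 3 was below control library 3, and the call ended without exposed library 1 or 2 or control library 1 or 2 (adjusted p between 0.0555 and 0.172). IRF7 had 9.81, 9.14 and 8.28 CPM in exposed libraries and 9.08, 10.6 and 11.6 CPM in control libraries, overlapping ranges with a log2 fold change of -0.20 (adjusted p = 0.302). The difference between these 2 genes was not tested. The gene irf9, whose product is the DNA-binding part of the type I interferon complex, had 17.4, 17.8 and 19.6 CPM in exposed libraries and 15.8, 18.9 and 20.9 CPM in control libraries, and the ranges overlapped (log2 fold change -0.018, adjusted p = 0.921). IRF4, a factor of lymphocyte development, averaged 0.848 ± 0.102 CPM in exposed and 0.372 ± 0.188 CPM in control libraries without passing (log2 fold change 1.20, adjusted p = 0.152). Its copy irf4b was not tested, with 0 counts in every exposed library and 0, 8 and 10 in the control libraries.

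The 4 genes of IRF2 binding proteins, corepressors in mammals, entered by the start of their symbol, and 2 of them were lower and none higher. Over all genes tested 18.7% were lower and 20.1% higher. IRF2BP2 (ENSDARG00000098635) had 85.7, 80.2 and 87.6 CPM in exposed libraries, all below the 112, 96.2 and 103 CPM in control libraries (log2 fold change -0.29 ± 0.074 SE, adjusted p = 8.53e-05). IRF2BPL had 50.9, 53.2 and 51.2 CPM in exposed libraries and 65.9, 54.6 and 64.4 CPM in control libraries, also without overlap (log2 fold change -0.25 ± 0.087 SE, adjusted p = 0.00352). IRF2BP1 had 60.1, 63.9 and 58.5 CPM in exposed libraries and 56.2, 56.0 and 58.6 CPM in control libraries, overlapping and short of the threshold (adjusted p = 0.215). The second IRF2BP2 gene (ENSDARG00000004702) did not pass either (adjusted p = 0.454), but it did so as a higher gene without control library 3 (log2 fold change 0.18, adjusted p = 0.0424).

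**Figure D3:**
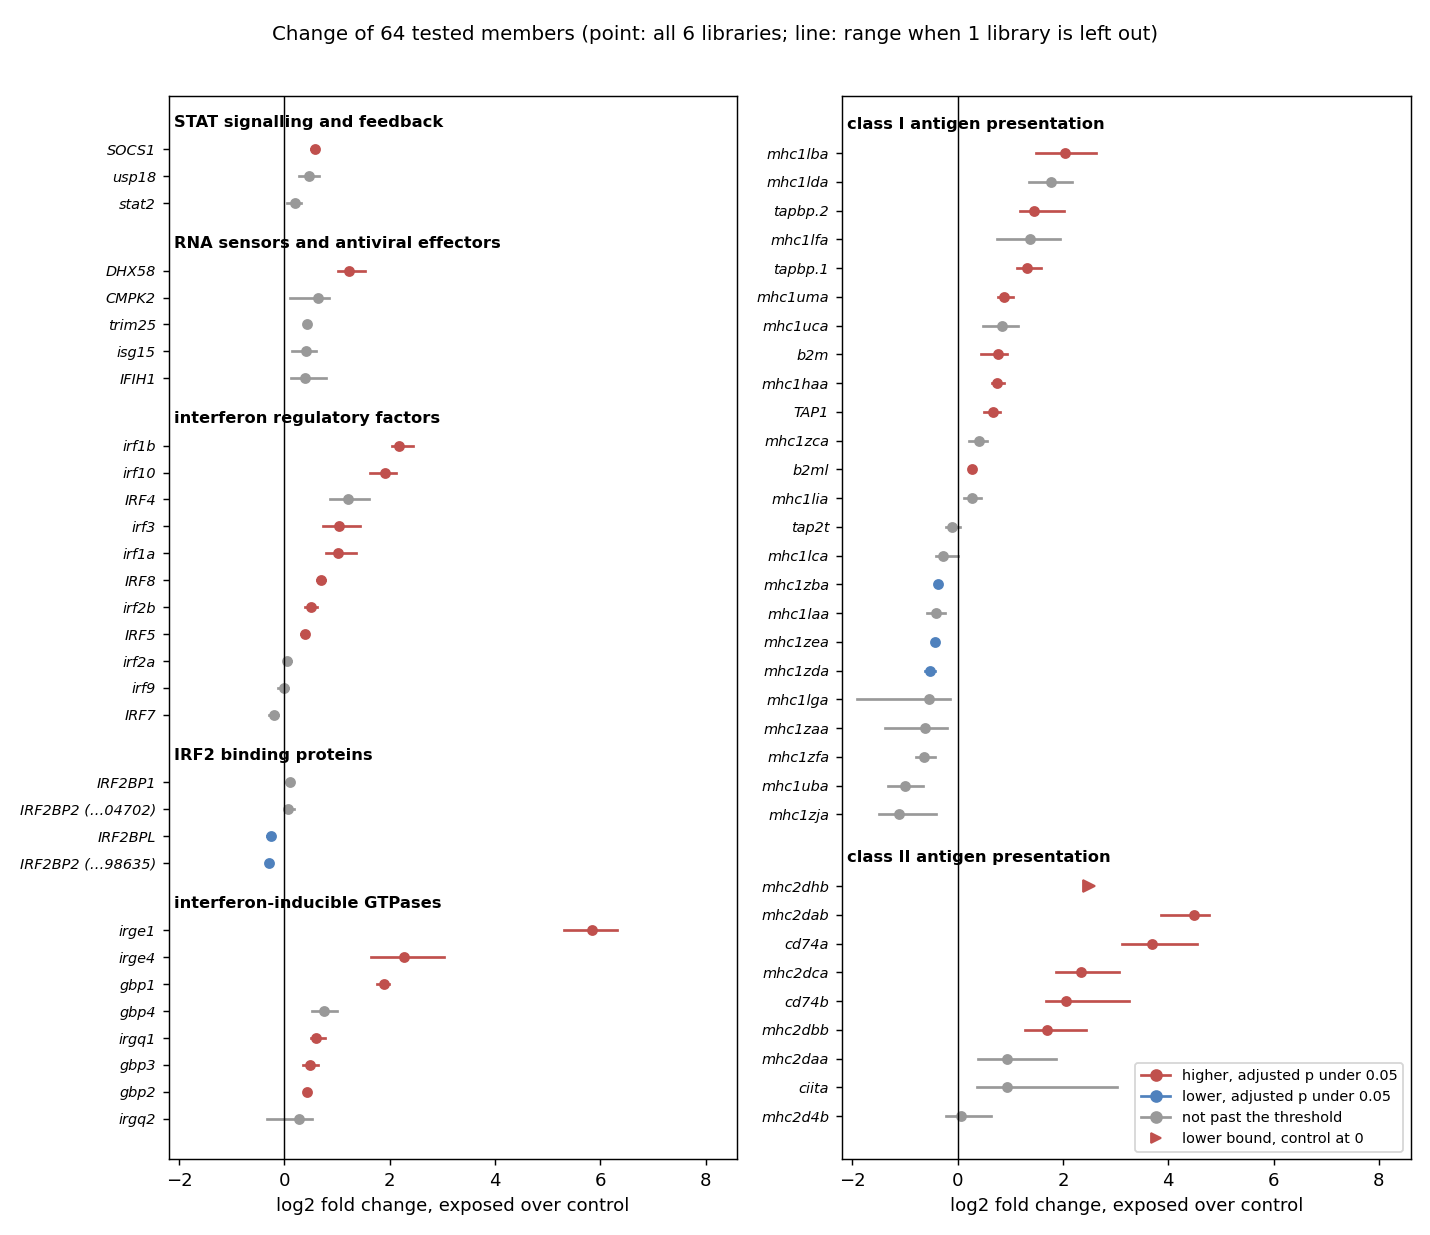
Log2 fold change, exposed over control, of 64 tested members by role. Points are the fit of all 6 libraries, and lines the range of the fits that left out 1 library and still tested the gene. Some genes of low counts were tested in fewer than 6 of these fits. The triangle is the lower bound of mhc2dhb, whose control libraries were at 0. The fit of mhc2dab without control library 1, which leaves only control counts of 0, is not drawn. Red points (higher) fill most of the IRF and GTPase groups, and all 5 blue points (lower) lie between 0 and -0.52.

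Interferon-inducible GTPases fall into the guanylate-binding proteins (gbp) and the immunity-related GTPases (irg), which act on intracellular pathogens and their vacuoles in mammals. Of the 8 tested, 6 were higher and none was lower, where 20.1% of all genes tested were higher and 18.7% lower. The median log2 fold change was 0.67. Without irge1, which entered the test through the exposed libraries alone, 5 of 7 were higher and the median was 0.60. One of those 5, irge4, was over the filter's cutoff in all 3 exposed libraries but in only 1 control library. It too needed the exposed libraries to enter the test, so the comparison with all genes favours higher calls. Their summed level was 48.9, 43.3 and 45.9 CPM in exposed libraries, against 23.2, 21.2 and 22.8 CPM in control libraries. The gene gbp1 had 18.3, 15.6 and 18.95 CPM in exposed libraries and 5.05, 3.91 and 5.39 CPM in control libraries. The groups were far apart (log2 fold change 1.89 ± 0.16 SE, adjusted p = 9.76e-12). Its neighbour gbp2 in the RefSeq order of GRCz12tu had 10.1, 9.42 and 10.0 CPM in exposed libraries and 7.74, 7.55 and 6.51 CPM in control libraries, a smaller but non-overlapping difference (log2 fold change 0.44 ± 0.083 SE, adjusted p = 0.0213). That call ended without exposed library 1 or 3 or control library 3 (adjusted p between 0.0711 and 0.0761). The gene gbp3 had 9.68, 8.19 and 6.48 CPM in exposed libraries and 6.34, 4.68 and 6.29 CPM in control libraries (log2 fold change 0.49 ± 0.22 SE, adjusted p = 0.0344). Exposed library 3 was only just above control library 1, and the call of gbp3 ended without exposed library 1 or 2 or control library 2 (adjusted p between 0.102 and 0.235). The gene gbp4 did not pass (log2 fold change 0.75, adjusted p = 0.157).

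Among the irg genes, irge1 was close to absent from the control libraries. It had 68, 109 and 78 counts in exposed libraries and 0, 2 and 2 counts in control libraries, or 2.21 ± 0.384 CPM in exposed and 0.0358 ± 0.0321 CPM in control libraries (SD, n = 3 each; log2 fold change 5.84 ± 0.37 SE, adjusted p = 2.11e-08). All exposed values were above all control values, and the call remained in each fit that left out 1 library. Because irge1 entered the test through the exposed libraries alone, it was bound to lie higher there, and neither result is separate evidence. The gene irge4 had 26, 25 and 31 counts in exposed libraries and 10, 0 and 6 counts in control libraries (log2 fold change 2.26 ± 0.82 SE, adjusted p = 0.0399). Its estimate moved to 3.04 without control library 1 and to 1.64 without control library 2, and its call ended without exposed library 1, 2 or 3 or control library 2 or 3 (adjusted p between 0.0523 and 0.156). The neighbour of irge4 in the same gene order, irgq1, had 3.96, 5.00 and 4.399 CPM in exposed libraries and 2.69, 3.55 and 2.57 CPM in control libraries (log2 fold change 0.60 ± 0.17 SE, adjusted p = 0.0426). Its groups were apart by less than 1 CPM, and the call ended without exposed library 1, 2 or 3 or control library 1 or 3 (adjusted p between 0.0596 and 0.183). The gene irgq2 did not pass (adjusted p = 0.818). Of the 4 irg genes that were not tested, irgf4 had 0 counts in every library. The other 3 held few counts, 18, 6 and 21 in exposed and 0, 6 and 0 in control libraries for irgf1, 6, 2 and 5 in exposed and 1, 0 and 0 in control libraries for irgf2, and 22, 4 and 20 in exposed and 4, 0 and 0 in control libraries for irgf3. Together these genes had 104 counts in the exposed and 11 in the control libraries. The irg and gbp genes are multigene families whose close copies could share reads, so the split between members is uncertain.

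Class I antigen presentation did not move as 1 block. Of 24 genes tested 8 were higher, 3 were lower and 13 did not pass, so 45.8% were called, near the 38.8% of all genes, and the median log2 fold change was 0.27, or 0.077 without mhc1lda and mhc1lfa, which entered the test through the exposed libraries alone. The heavy-chain genes are given apart from the other class I genes. Of the 6 light-chain and peptide-loading genes tested 5 were higher and none lower, with a summed level of 95.9, 97.9 and 96.5 CPM in exposed libraries, against 74.4, 81.7 and 78.6 CPM in control libraries. The light-chain gene b2ml alone made up 79.8, 76.7 and 78.3 CPM of the exposed and 62.2, 69.0 and 63.2 CPM of the control sums. Of the loading genes, TAP1, tapbp.1 and tapbp.2 were higher and tap2t did not pass. Of the 18 heavy-chain genes tested 3 were higher and 3 lower. That made 33.3% called, near the 38.8% of all genes tested, of which 20.1% were higher and 18.7% lower. Without mhc1lda and mhc1lfa, 3 of 16 heavy-chain genes were higher and 3 lower. Among the 6 light-chain and peptide-loading genes the share called was 83.3%. The summed level of the heavy-chain genes was 85.2, 84.3 and 81.2 CPM in exposed libraries, against 97.2, 99.8 and 103 CPM in control libraries. The difference between these 2 subgroups was not tested.

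The gene b2ml, a copy of the class I light chain beta-2-microglobulin, had 79.8, 76.7 and 78.3 CPM in exposed libraries and 62.2, 69.0 and 63.2 CPM in control libraries. The groups did not overlap, though the change was small (log2 fold change 0.27 ± 0.049 SE, adjusted p = 2.70e-04). The copy b2m had 2.99, 5.00 and 2.78 CPM in exposed libraries and 2.39, 1.36 and 2.67 CPM in control libraries (log2 fold change 0.76 ± 0.39 SE, adjusted p = 0.0431). Exposed library 2 was the high one, exposed libraries 1 and 3 were close to control library 3, and the call ended without exposed library 1 or 2 or control library 2 (adjusted p between 0.0511 and 0.381). Both genes of tapasin, the chaperone that helps class I molecules pick up peptide, were higher. The gene tapbp.1 had 2.99, 3.66 and 2.15 CPM in exposed libraries and 1.56, 0.909 and 1.05 CPM in control libraries, apart in every library (log2 fold change 1.32 ± 0.31 SE, adjusted p = 0.00195). The gene tapbp.2 had 1.40, 1.57 and 2.34 CPM in exposed libraries and 0.376, 1.05 and 0.496 CPM in control libraries, also without overlap (log2 fold change 1.45 ± 0.46 SE, adjusted p = 0.0118); its call ended without exposed library 3 (adjusted p 0.124). TAP1, a subunit of the pump that carries peptides into the endoplasmic reticulum, had 3.02, 3.66 and 3.88 CPM in exposed libraries and 1.67, 2.59 and 2.39 CPM in control libraries (log2 fold change 0.67 ± 0.22 SE, adjusted p = 0.0475). The groups of TAP1 did not overlap, and the call ended without exposed library 1, 2 or 3 or control library 1 (adjusted p between 0.0588 and 0.174). The partner gene tap2t had 5.39, 7.28 and 7.09 CPM in exposed libraries and 5.96, 6.80 and 8.65 CPM in control libraries, which overlapped (adjusted p = 0.690). The other partner, tap2a, was not tested, with 10, 2 and 0 counts in exposed and 12, 0 and 6 counts in control libraries, and nlrc5, the class I transactivator of mammals, had 0 counts in every library.

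Heavy chains were described by lineage. In the U lineage, which holds the classical class I genes of zebrafish, mhc1uma had 3.90, 3.50 and 3.93 CPM in exposed libraries and 2.47, 1.68 and 1.98 CPM in control libraries. Every exposed value was above every control value (log2 fold change 0.88 ± 0.17 SE, adjusted p = 0.00790). The gene mhc1uca had a log2 fold change of 0.84 and mhc1uba of -0.997, and neither passed (adjusted p = 0.345 and 0.0945). The 3 lower class I genes were all of the Z lineage, and none of its 7 tested genes was higher, where 18.7% of all genes tested were lower and 20.1% higher. The gene mhc1zba had 35.3, 31.8 and 31.1 CPM in exposed libraries and 39.8, 42.6 and 44.8 CPM in control libraries. All exposed values lay below all control values (log2 fold change -0.37 ± 0.075 SE, adjusted p = 2.03e-04). The gene mhc1zea had 14.97, 15.8 and 14.9 CPM in exposed libraries and 20.8, 20.5 and 20.5 CPM in control libraries, again without overlap (log2 fold change -0.43 ± 0.029 SE, adjusted p = 0.00103). The gene mhc1zda had 7.05, 7.59 and 6.27 CPM in exposed libraries and 11.12, 10.2 and 8.62 CPM in control libraries (log2 fold change -0.52 ± 0.13 SE, adjusted p = 0.00881). Its groups were apart too, and its call ended without exposed library 3 (adjusted p 0.0632). These 3 genes lie in 1 run with mhc1zca in the RefSeq order of GRCz12tu, where mhc1zca averaged 5.67 ± 1.19 CPM in exposed and 4.28 ± 1.08 CPM in control libraries and did not pass (log2 fold change 0.41, adjusted p = 0.147). The summed level of the Z lineage was 65.1, 64.7 and 59.5 CPM in exposed libraries, against 79.1, 82.8 and 81.7 CPM in control libraries.

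Liver markers and endothelial markers were lower beside the Z lineage. Of these lists 11 of 11 and 8 of 9 genes were called lower, where 18.7% of all genes tested were lower. Endothelial markers summed to between 77.8 and 80.5 CPM in exposed and between 144 and 163 CPM in control libraries. The part of liver and endothelial cells in the Z lineage was not tested. In the L lineage 1 of the 7 genes tested was called, or 14.3%, beside 38.8% of all genes tested. That gene, mhc1lba, had 34, 54 and 16 counts in exposed and 14, 12 and 0 counts in control libraries. It was over the filter's cutoff in all 3 exposed but only 2 control libraries. Exposed library 3 was only 2 counts above control library 1 and below it in CPM, so the groups overlapped (log2 fold change 2.04 ± 1.08 SE, adjusted p = 0.0423), and the call ended without exposed library 1 or 2 or control library 2 or 3 (adjusted p between 0.0647 and 0.243). Its neighbour mhc1laa averaged 6.42 ± 1.31 CPM in exposed and 8.57 ± 1.75 CPM in control libraries and missed the threshold (log2 fold change -0.41, adjusted p = 0.0750), but was called lower without exposed library 3 (adjusted p = 0.0377) or control library 1 (adjusted p = 0.0196). Outside these lineages, mhc1haa had 3.25, 3.66 and 3.46 CPM in exposed libraries and 1.77, 2.00 and 2.42 CPM in control libraries, without overlap (log2 fold change 0.75 ± 0.14 SE, adjusted p = 0.0258). The call of mhc1haa ended without exposed library 1, 2 or 3 or control library 1 (adjusted p between 0.0540 and 0.0965). The remaining L and Z genes tested had log2 fold changes between -1.11 for mhc1zja and 1.76 for mhc1lda and did not pass, and mhc1lja, mhc1lla and mhc1zka were not tested. Haplotypes that the reference genome does not hold would leave their reads uncounted or assigned to a related gene.

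Of the 9 class II genes tested, 6 were higher, none was lower and 3 did not pass, with a median log2 fold change of 2.05 (also with mhc2dhb at its lower bound), and the 10 others were too low to test. Of the 6 higher genes cd74a, mhc2dab and mhc2dhb had entered the test through the exposed libraries alone. Without these, 3 of 6 genes were higher and the median was 1.32, where 20.1% of all genes tested were higher. Those 3, cd74b, mhc2dca and mhc2dbb, were over the filter's cutoff in all 3 exposed libraries but in only 1, 1 and 2 control libraries. They too needed the exposed libraries to enter the test, so the comparison with all genes favours higher calls. Counts were few. Summed over all 19 genes they came to 400, 540 and 557 in exposed libraries, against 230, 246 and 95 in control libraries, and in CPM to 13.0, 12.8 and 13.0 in exposed and 6.18, 5.59 and 2.94 in control libraries. Every exposed sum was above every control sum, and control library 3 was the lowest.

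Invariant chain, the CD74 protein, holds class II molecules until they meet peptide, and both of its zebrafish genes rose. The gene cd74a had 32, 48 and 60 counts in exposed libraries and 0, 4 and 6 counts in control libraries. The groups were apart (log2 fold change 3.69 ± 0.65 SE, adjusted p = 3.55e-04), and the estimate was 4.54 without control library 3. Having entered the test through the exposed libraries alone, cd74a was bound to lie higher there. The gene cd74b had 42, 76 and 78 counts in exposed libraries, or 1.36, 1.81 and 1.83 CPM, and 6, 36 and 6 counts in control libraries, or 0.161, 0.818 and 0.186 CPM. Control library 2 was the high one of its group but below every exposed library in CPM (log2 fold change 2.05 ± 0.66 SE, adjusted p = 0.00329). The estimate of cd74b was 3.25 when control library 2 was left out.

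Of the chain genes, mhc2dbb had 3.05, 2.97 and 3.14 CPM in exposed libraries and 0.860, 1.64 and 0.248 CPM in control libraries. The exposed libraries were close to each other, the control libraries were spread and all lower (log2 fold change 1.703 ± 0.73 SE, adjusted p = 0.00102). Leaving out control library 2 moved the estimate to 2.43. The gene mhc2dca had 30, 37 and 59 counts in exposed and 8, 16 and 1 counts in control libraries, without overlap (log2 fold change 2.35 ± 0.72 SE, adjusted p = 0.00819). The estimate moved to 3.06 when control library 2 was left out, and its call ended without exposed library 3 (adjusted p 0.0792). The gene mhc2dab had 36, 20 and 41 counts in exposed and 4, 0 and 0 counts in control libraries (log2 fold change 4.48 ± 0.65 SE, adjusted p = 7.00e-04). Its only control counts came from library 1; without that library it was at least 10.8-fold higher against a floor of 3 counts per library, and without control library 2 the log2 fold change was 3.86. The gene mhc2dhb had 12, 26 and 15 counts in exposed libraries and 0 in each control library, at least 5.62-fold higher against the same floor (adjusted p = 9.51e-04). The floor covers counting error only. Both mhc2dab and mhc2dhb entered the test through the exposed libraries alone, so they were bound to lie higher there.

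In contrast to these, mhc2d4b had 3.38, 2.90 and 2.32 CPM in exposed libraries and 4.46, 1.55 and 2.17 CPM in control libraries, where control library 1 was the highest of all 6 (log2 fold change 0.071 ± 0.47 SE, adjusted p = 0.888). The class II transactivator gene ciita, which switches the class II genes on, had 16, 20 and 22 counts in exposed and 0, 28 and 4 counts in control libraries. Control library 2 exceeded the exposed libraries, and the gene did not pass (log2 fold change 0.94 ± 1.07 SE, adjusted p = 0.446); without that library it was called higher (log2 fold change 3.02, adjusted p = 0.04999). The gene mhc2daa had 12, 12 and 18 counts in exposed and 14, 8 and 0 counts in control libraries and did not pass (adjusted p = 0.477). The 10 genes that were not tested held 107 counts in the exposed and 14 in the control libraries, of which mhc2d8.37a2 had 6, 26 and 10 counts in exposed and 0, 4 and 0 counts in control libraries; mhc2d8.35a1, mhc2d8.37a1 and mhc2d8.37b2 had 0 in every library. Close copies among the class II genes could share reads.

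**Figure D4:**
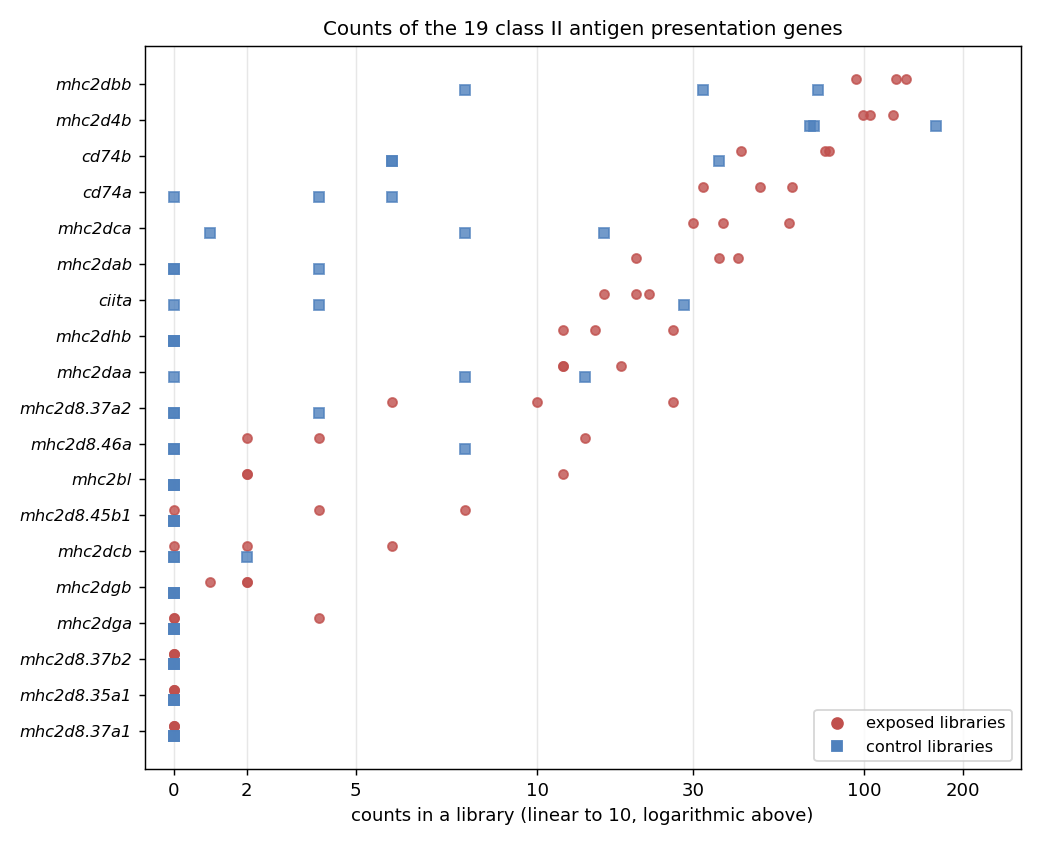
Counts of the 19 class II antigen presentation genes in each library, on an axis that is linear to 10 and logarithmic above. Red circles are the 3 exposed and blue squares the 3 control libraries. The circles of cd74a, cd74b, mhc2dca, mhc2dab, mhc2dbb and mhc2dhb lie to the right of their squares, while those of mhc2d4b, ciita and mhc2daa are mixed with theirs. Of these genes, cd74a, mhc2dab and mhc2dhb entered the test through the exposed libraries alone and were bound to lie to the right.

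Markers of the leukocytes that make class II molecules were measured beside these genes. Of 9 pan-leukocyte genes 8 were higher, where 20.1% of all genes tested were higher, and the median log2 fold change of the list was 0.62. The largest change on it was that of ptprc, the CD45 gene, with 16.4, 17.8 and 13.7 CPM in exposed and 9.56, 8.25 and 7.04 CPM in control libraries (log2 fold change 0.94 ± 0.17 SE, adjusted p = 2.55e-06). SPI1, the PU.1 factor of myeloid cells, had 13.4, 12.6 and 11.96 CPM in exposed and 4.24, 5.59 and 3.91 CPM in control libraries (log2 fold change 1.46 ± 0.16 SE, adjusted p = 1.52e-08). SPI1 is on the macrophage list, of which 10 of 20 genes tested were higher, 2 were lower and 8 did not pass. The median log2 fold change of the macrophage list was 0.50. Without grna.2, 9 of 19 were higher. That list summed to between 1117 and 1132 CPM in exposed and between 1238 and 1298 CPM in control libraries. Among lymphocyte and dendritic cell markers 2 of 9 tested were higher and 7 did not pass, or 1 of 8 higher without BATF3. The list summed to between 25.7 and 27.0 CPM in exposed and between 15.5 and 21.7 CPM in control libraries (exact permutation p = 0.1), and cd8a was at 0 in every library. BATF3, a factor of dendritic cells in mammals, had 1.56, 0.761 and 1.22 CPM in exposed and 0.161, 0.136 and 0.124 CPM in control libraries. It entered the test through the exposed libraries alone and so was bound to lie higher there. The B cell gene cd79a stayed below 0.4 CPM in every library. Neutrophil markers summed to between 101 and 114 CPM in exposed and between 99.8 and 109 CPM in control libraries (exact permutation p = 0.6). The part of leukocytes in the class II and GTPase differences was not tested.

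Upstream of the members, transcripts of the interferons themselves were at or near 0. The type I genes ifnphi2 and ifnphi4 had 0 counts in every library, and ifnphi1, ifnphi3, ifng1 and ifng1r were too low to test. Some of their receptors were measured, and 5 of the 16 symbols on the list of ligands and receptors had no match. The interferon gamma receptor gene ifngr1 averaged 11.5 ± 0.705 CPM in exposed and 7.23 ± 1.06 CPM in control libraries (SD, n = 3 each; log2 fold change 0.67 ± 0.14 SE, adjusted p = 6.21e-04), and its copy ifngr1l rose by a log2 fold change of 0.57 (adjusted p = 0.00344). The receptor gene il10rb, which serves several class II cytokine receptors in mammals, had a log2 fold change of -0.36 and was lower (adjusted p = 8.61e-06). The type I receptor genes crfb1 and crfb2 did not pass, with log2 fold changes of 0.52 (adjusted p = 0.317) and 0.46 (adjusted p = 0.609).

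Of 19 tested kinases, sensors and adaptors of the pathway 10 were higher, 1 was lower and 8 did not pass, with a median log2 fold change of 0.24. The share called was 57.9%, beside 38.8% of all genes tested. The STAT feedback inhibitor gene SOCS3 (ENSDARG00000025428) averaged 123 ± 3.76 CPM in exposed and 54.9 ± 0.879 CPM in control libraries (log2 fold change 1.16 ± 0.029 SE, adjusted p = 1.39e-17). PTPN6, a phosphatase gene of blood cells, rose by a log2 fold change of 1.000 (adjusted p = 2.69e-08). The kinase gene IKBKE, which activates IRF3 and IRF7, rose by 0.95 (adjusted p = 6.18e-05), the Toll-like receptor adaptor gene ticam1 by 0.85 (adjusted p = 1.13e-05) and the adaptor gene mavs by 0.68 (adjusted p = 5.68e-05). The lower one was jak2a, at -0.20 (adjusted p = 0.0478). Of 23 tested interferon-stimulated genes outside the members 9 were higher, 1 was lower and 13 did not pass. Without rnf213b and cxcl11.1, which entered the test through the exposed libraries alone, 7 of 21 were higher. The share called was then 38.1%, near the 38.8% of all genes tested. The galectin gene lgals9l1 averaged 17.4 ± 1.50 CPM in exposed and 1.89 ± 0.755 CPM in control libraries (log2 fold change 3.20 ± 0.39 SE, adjusted p = 5.79e-14), and the genes pkz, a fish relative of the antiviral kinase PKR, xaf1, RNF213 and ZNFX1 rose by 1.69, 1.53, 1.12 and 0.97 on the log2 scale (adjusted p = 0.00445, 1.86e-04, 1.38e-08 and 0.0274). The lower one was parp12b, at -0.81 (adjusted p = 8.46e-05), and ifit9, ifit10, ifit14, ifit15 and ifit16 had 0 counts in every library.

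The list of immunoproteasome, trimming and loading genes completed the route of a peptide: 10 of 21 were higher, 4 were lower and 7 did not pass, with a median log2 fold change of 0.62. Without PSMB9 and psmb13a, which entered the test through the exposed libraries alone, 9 of 19 were higher and the median was 0.32. The share called was then 68.4%, beside 38.8% of all genes tested. The summed level of the list went the other way, between 954 and 973 CPM in exposed and between 1011 and 1048 CPM in control libraries. PSME1 and PSME2, the subunits of the proteasome activator PA28, averaged 26.8 ± 0.679 CPM in exposed and 12.9 ± 1.32 CPM in control libraries for PSME1 and 18.5 ± 2.34 CPM in exposed and 6.35 ± 0.737 CPM in control libraries for PSME2 (log2 fold changes 1.06 and 1.54, adjusted p = 1.02e-09 and 1.57e-10). The peptide-trimming gene ERAP1 (ENSDARG00000021859) rose by a log2 fold change of 1.08 (adjusted p = 2.38e-05), erap2 by 1.01 (adjusted p = 7.16e-04) and the cathepsin S gene ctss2.1, whose product cuts invariant chain in mammals, by 1.01 (adjusted p = 6.42e-10). The chaperone gene CALR, which holds class I chains during loading, averaged 42.1 ± 2.88 CPM in exposed and 65.4 ± 1.87 CPM in control libraries and was lower (log2 fold change -0.64 ± 0.061 SE, adjusted p = 2.06e-09).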

How the data were processed

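Per the labels, total RNA of sorted cells was sequenced; the deposited table gives raw read counts per Ensembl gene, with no normalization by the authors. Per the submitters' processing notes the build was GRCz11 and the tools were STAR 2.7.10a, featureCounts 2.0.6, FastQC and R 4.4.2; their order and settings are not given in the sources used here. Even numbers made up between 76.1% and 81.7% of the nonzero counts of a library, which points to both mates having been counted. Such counts overstate the number of fragments, and counts without molecular identifiers are not independent molecules. The treatment of reads that fit more than 1 gene, the annotation and the strand setting are likewise not given.

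Gene symbols came from a table that names 29201 of the 32520 genes; 3 members were matched without a paralog letter, and 23 of 200 symbols of the marker and pathway lists had no match. The RefSeq table of GRCz12tu was used for gene order only, and no sequence or coordinate is given. The deposited counts went unchanged into edgeR 4.0.16 (R 4.3.3): filterByExpr by group (minimum count 10, minimum total 15), TMM factors, and a robust quasi-likelihood test of exposed against control over the whole table, with Benjamini-Hochberg adjustment. The script was tested on simulated data. Levels are TMM-scaled CPM, with SD over 3 libraries. SEs refer to the difference between group means of log2 CPM (prior count 2), whereas the log2 fold changes beside them come from the fit. They are thus not the error of the fitted value, and at low counts the prior count can make them too small. Transcript lengths were not used, so levels are not compared between genes. A floor of 3 counts per library stands for groups at 0. For list sums an exact permutation test, two-sided, was run over libraries. Alternatives were DESeq2 1.42.0 (size factors, Wald test), library totals, no filter, halved counts, a replicate block and leaving out each library.

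The members and lists were chosen with earlier results of these data known. By rule, values in every library are given, per role, for up to 4 called members of the largest change at a mean of at least 1 CPM and for the 2 of highest level, with paralogs added where needed; other values were added after they were seen. Of each pathway list the text names up to 5 called genes of the largest change at a mean of at least 1 CPM, and any ligands and receptors; jak2a, parp12b, CALR, genes at 0 counts and genes that entered the test through the exposed libraries alone fall outside that rule and were named after their values were seen. Some single genes are in the counts and sums but are not reported here.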

Additional observations from a re-analysis of the deposited data

How the results depend on the processing

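Higher calls among the members numbered 32 with DESeq2 size factors, 31 with library totals only, 30 with DESeq2's Wald test, 32 without the filter and 29 with halved counts, and lower calls stayed at 5 in each; no member tested changed direction past the threshold. With the Wald test TAP1, b2m, gbp3 and irgq1 were lost and mhc2d8.37a2 and irgf3 were gained; TAP1 was also lost with library totals only and without the filter. Halved counts left mhc1lba, mhc2dab and mhc2dhb under the filter. When each library was left out in turn, higher calls ranged from 21 (without exposed library 1) to 29, lower calls from 5 to 6, and calls over all genes, 8213 in the full fit, from 6712 to 8063. Read narrowly, without symbols that lack a paralog letter and without the IRF2 binding proteins, the rule gave 29 higher and 3 lower members, because the 2 lower IRF2 binding protein genes are left out by construction.

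The replicate numbers are shared by the groups, and the labels do not say whether same-numbered libraries were prepared together. Deviations of same-numbered libraries from their group means were close to uncorrelated (correlations of -0.013, -0.0037 and 0.012). With 3 libraries per group, such values cannot exclude a pairing. With the number as a replicate block there were 30 higher and 6 lower members and 8164 calls over all genes; DHX58 and b2m were lost and mhc1laa was gained as lower. Not every library correlated best with its own number. Low counts limit the class II, irg and L-lineage genes: 19 of the 67 tested members averaged under 1 CPM.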
